A study of Mus musculus with 13 samples.

Results

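Neurog3, Gpr133, Gm14569, 1700029P11Rik and Jam2 were the 5 genes whose transcripts lay furthest above the control when the remodeller subunit Smarcc1 was knocked down in differentiating female mouse embryonic stem cells (mESCs). They were picked from the 25965 genes of a table of log2 CPM (CPM being reads scaled to a mapped total of 1000000, with both alleles summed) as the largest mean rises over same-day control libraries, among 730 genes that passed the test for a higher level in knockdown and rose in all 8 same-day comparisons. That difference therefore chose them and is given below as a description, without a test. In log2 CPM it was 4.05 for Neurog3, 3.83 for Gpr133, 3.63 for Gm14569, 3.21 for 1700029P11Rik and 3.21 for Jam2. The genes just outside the choice were AC122464.1 at 3.08, Zscan5b at 3.05 and Fcgrt at 2.95.

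The 13 RNA-seq libraries came from female FVB/CAST F1 mESCs, bred from an FVB mother and a CAST father. Day0 was 1 library of undifferentiated cells, expanded in 2i medium, which holds mESCs in the naive state. The other 12 libraries were harvested on days 4, 5, 6 and 7 after weaning into DME HiHi medium, 1 library on each day for each of 3 short hairpin RNAs (shRNAs), namely the nonsilencing control Nons and the Smarcc1 hairpins Smarcc1.6 and Smarcc1.7. All 12 were transduced with virus on day 2 and selected with puromycin on day 3, whereas Day0 received neither. The 4 days were the only replication of a group, and nothing states that the libraries of different days came from separate cultures, so the tests measure the spread between these libraries.

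Depth ran from 13993440 to 63548079 mapped reads, and 3 reads corresponded to a log2 CPM between -4.40 and -2.22. A gene without reads was written in the table as if it had 0.9 reads. In Day0 and the 3 libraries of day 6, genes took up 85.3% to 86.5% of mapped reads, and in the remaining 9 libraries 91.6% to 92.6%. Comparisons within a day do not cross this divide, and Day0 shares it with day 6 alone.

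The Smarcc1 protein is part of the core of the BAF complex, which moves nucleosomes and opens chromatin to transcription factors. Neurog3 is a basic helix-loop-helix (bHLH) transcription factor that commits pancreatic progenitors to the endocrine lineage and also acts in neural precursors. Gpr133, now named Adgrd1, is an adhesion G protein-coupled receptor, a receptor that carries a long extracellular region and signals through G proteins. Jam2 is an immunoglobulin superfamily protein of cell junctions, best known at the contacts between endothelial cells and between germ cells and their supporting cells. Gm14569 and 1700029P11Rik are protein-coding gene models without an established role.

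The genes lay on 5 chromosomes. In mm10 coordinates, Gpr133 spans chr5:129096750-129204599 on the plus strand, Neurog3 chr10:62133090-62134763 on the plus strand, 1700029P11Rik chr15:81980540-81981563 on the plus strand, Jam2 chr16:84774123-84825928 on the plus strand and Gm14569 chrX:36423601-36491830 on the minus strand. In the GENCODE M21 models, Neurog3 and 1700029P11Rik form 1 exonic block each, of 1674 and 1024 bases, whereas Gm14569 and Jam2 have 11 blocks and Gpr133 has 26. Gm14569 lies on the X chromosome, 1 copy of which female mESCs silence as they differentiate.

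The guide strands of both hairpins are shown because they define the perturbation. They come from the study's oligonucleotide list and are written 5′ to 3′ with bases 2 to 8, the seed, in capitals.

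Smarcc1.6: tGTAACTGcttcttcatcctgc

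Smarcc1.7: tTGCTCATcttcttccttctga

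Each guide was complementary over all 22 bases to Smarcc1 and to no other gene among the GENCODE M21 transcripts. The Smarcc1.6 site is chr9:110177472-110177493 in exon 13 and the Smarcc1.7 site chr9:110173911-110173932 in exon 11, both on the plus strand of mm10, in the coding sequence of a transcript of 29 exons.

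Promoter sequence from RefSeq (GRCm38.p6) was matched for 3 of the 5 genes, from 250 bases before to 50 after the start. It is shown because these genes all fell from day 4 to day 7 but have promoters of unlike base composition. CG dinucleotides (CpG), the sites of DNA methylation, are in capitals.

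Neurog3, chr10:62132840-62133139, plus strand: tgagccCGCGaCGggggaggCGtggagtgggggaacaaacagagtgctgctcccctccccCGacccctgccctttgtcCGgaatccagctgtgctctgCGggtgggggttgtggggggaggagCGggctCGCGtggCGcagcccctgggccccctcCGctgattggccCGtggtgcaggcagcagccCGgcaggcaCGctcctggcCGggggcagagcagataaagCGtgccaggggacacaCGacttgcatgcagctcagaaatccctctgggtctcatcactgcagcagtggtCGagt

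1700029P11Rik, chr15:81980290-81980589, plus strand: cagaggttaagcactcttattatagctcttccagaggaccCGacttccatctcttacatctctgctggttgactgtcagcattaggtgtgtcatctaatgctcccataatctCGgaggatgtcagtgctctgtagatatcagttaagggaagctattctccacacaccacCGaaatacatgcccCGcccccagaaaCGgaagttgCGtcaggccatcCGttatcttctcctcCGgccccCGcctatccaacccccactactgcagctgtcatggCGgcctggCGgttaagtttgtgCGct

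Gm14569, chrX:36492586-36492885, minus strand: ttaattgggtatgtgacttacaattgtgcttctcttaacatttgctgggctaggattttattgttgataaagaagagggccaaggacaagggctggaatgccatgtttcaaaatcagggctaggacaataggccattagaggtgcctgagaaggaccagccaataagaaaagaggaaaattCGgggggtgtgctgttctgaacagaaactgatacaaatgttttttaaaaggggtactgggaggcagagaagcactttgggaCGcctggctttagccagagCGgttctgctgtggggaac

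The Neurog3 window held 19 CpGs at 68.3% G and C, the 1700029P11Rik window 12 at 52.3% and the Gm14569 window 3 at 45.7%. The median over 32841 promoters of this length was 7. As many CpGs as in Neurog3 were found in 28.1% of them, as many as in 1700029P11Rik in 39.6% and as many as in Gm14569 in 76.7%. The RefSeq start of Gm14569 lies 805 bases upstream of its start in the table, so its window lies outside the span given above. DNA methylation was not measured in these libraries.

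The hairpins lowered their target on every day. Smarcc1 stood at 258 CPM in Day0 and, over days 4 to 7, at 549, 467, 310 and 237 CPM in Nons. With Smarcc1.6 the level was 171, 169, 156 and 155 CPM, and with Smarcc1.7 it was 249, 220, 144 and 182 CPM. Each knockdown library lay below the Nons library of its day, at 0.312 to 0.655 of it with Smarcc1.6 and at 0.454 to 0.768 with Smarcc1.7. The gap was widest on day 4 and narrowest on day 7 as the level in Nons declined.

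Neurog3 was not detected in undifferentiated cells and appeared only within the time course. Day0 had 0 Neurog3 reads, which allows up to 0.135 CPM. In Nons the gene had 231, 37, 1 and 0 reads on days 4, 5, 6 and 7, or 3.87, 0.797, 0.0284 and 0 CPM, where the 0 reads of day 7 allow up to 0.101 CPM. With Smarcc1.6 it stood at 4.85, 9.34, 6.36 and 1.64 CPM (308, 283, 237 and 96 reads), and with Smarcc1.7 at 5.86, 6.15, 2.80 and 0.827 CPM (255, 86, 89 and 42 reads). On day 4 the control was thus near the knockdown libraries, and it was at the detection limit by day 6 while every knockdown library held at least 42 reads. Over all days the groups overlapped, because Nons on day 4 lay above both hairpins on day 7.

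The ratio of Neurog3 to same-day Nons was 1.25 with Smarcc1.6 and 1.51 with Smarcc1.7 on day 4, and 11.7 and 7.71 on day 5. On day 6, against a single control read, it was 224 with Smarcc1.6 (95% exact counting interval 39.8 to 8885) and 98.5 with Smarcc1.7 (17.2 to 3935). Against the limit of 3 reads on day 7, Neurog3 was at least 16.2-fold higher with Smarcc1.6 and at least 8.18-fold higher with Smarcc1.7. These intervals and limits cover counting error only. Nons was highest on day 4 and Smarcc1.6 on day 5, whereas the Smarcc1.7 levels of days 4 and 5 were close.

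Neurog3 lies within the span of the antisense gene 2010107G23Rik (Fam241b in GENCODE), and 273 of its 1674 exonic bases are also exonic there. The strand setting of the counting was not given in the sources used here, so reads in the shared bases cannot be assigned to either gene. The antisense gene had 82 reads in Day0 and 165 in Nons on day 7, libraries in which Neurog3 had 0. Its own level was 5.21 to 6.93 CPM in Nons and, on days 6 and 7, 13.3 to 14.7 CPM with the hairpins, and its difference from Nons passed the test (0.78 ± 0.17 SE in log2 CPM, limma adjusted p = 0.0143).

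Gpr133 was highest in undifferentiated cells and, on each later day, lower in Nons than with either hairpin. Day0 had 369 reads, or 16.6 CPM. Nons had 4.13 and 0.603 CPM on days 4 and 5 and then 0 reads on day 6 and 1 read on day 7. Smarcc1.6 libraries held 14.3, 8.15, 2.79 and 0.716 CPM, and Smarcc1.7 libraries 9.83, 4.65, 0.880 and 0.847 CPM. Day0 was above all 12 later libraries, and both hairpins kept 28 or more reads in every library.

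Relative to Day0, Gpr133 on day 4 stood at 24.9% in Nons, 86.1% with Smarcc1.6 and 59.4% with Smarcc1.7. On day 6, the day that shares the read assignment of Day0, it stood at 16.9% with Smarcc1.6 and 5.32% with Smarcc1.7, and Day0 was at least 194-fold above Nons. Compared with same-day Nons, Gpr133 was 3.46-fold higher on day 4 with Smarcc1.6 and 2.38-fold with Smarcc1.7, and 13.5-fold and 7.70-fold higher on day 5. Against 0 control reads on day 6 it was at least 32.8-fold and at least 10.3-fold higher. The pseudogene Rps16-ps2 lies inside its span on the other strand.

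Jam2, too, was highest in undifferentiated cells. It had 4932 reads in Day0, or 221 CPM. Nons had 48.5, 3.30, 0.824 and 0.0674 CPM on days 4 to 7, the last of these from 2 reads. Smarcc1.6 libraries had 188, 37.2, 7.60 and 3.27 CPM and Smarcc1.7 libraries 142, 20.01, 4.75 and 1.77 CPM. The later libraries were all below Day0, and on each day both hairpins were above Nons, with day 4 of Nons above day 5 of either hairpin.

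Jam2 thus remained at 85.1% of its Day0 level with Smarcc1.6 on day 4 and at 64.3% with Smarcc1.7, against 21.9% in Nons. By day 6 it had fallen to 3.43%, 2.15% and 0.372% of Day0, in the same order. The same-day ratio was 3.88 and 2.93 on day 4, 11.3 and 6.07 on day 5, and 9.22 and 5.76 on day 6 for Smarcc1.6 and Smarcc1.7. On day 7, against 2 control reads, it was 48.5 (counting interval 13.3 to 404) with Smarcc1.6 and 26.3 (7.07 to 220) with Smarcc1.7.

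Gm14569 was detected in undifferentiated cells but was higher on day 4 in every group. Day0 had 90 reads, or 4.04 CPM. Nons had 11.02 and 1.31 CPM on days 4 and 5 and 0 reads on days 6 and 7. With Smarcc1.6 the gene stood at 14.7, 18.5, 5.99 and 1.09 CPM, and with Smarcc1.7 at 13.6, 9.36, 1.07 and 0.295 CPM. The groups were close on day 4, with ratios to Nons of 1.33 and 1.24, and apart from day 5, with ratios of 14.1 and 7.12.

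On day 6 Gm14569 was at least 70.3-fold higher with Smarcc1.6 and at least 12.5-fold higher with Smarcc1.7, and on day 7 at least 10.8-fold and at least 2.92-fold higher. The lowest of these bounds rests on 15 reads, the fewest of any of the 5 genes in a knockdown library. On day 6, Gm14569 stood at 148% of Day0 with Smarcc1.6 and 26.5% with Smarcc1.7. Both alleles are summed in these values, so they do not tell an active from an inactive X chromosome.

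1700029P11Rik behaved like Gm14569 but kept more reads. It stood at 13.4 CPM in Day0 and at 23.2, 4.80, 0.568 and 0.0674 CPM in Nons, from 1384, 223, 20 and 2 reads. Smarcc1.6 libraries had 37.5, 38.0, 14.7 and 4.40 CPM and Smarcc1.7 libraries 29.7, 23.7, 8.43 and 1.81 CPM. Both hairpins were at or above the level of Nons on day 4 until day 5, when Nons had dropped to 20.7% of its day 4 value. The ratio to same-day Nons rose from 1.61 on day 4 through 7.90 and 25.8 to 65.2 on day 7 with Smarcc1.6 (counting interval on day 7, 17.9 to 542). With Smarcc1.7 it rose from 1.28 through 4.92 and 14.8 to 26.9 (7.23 to 225). On day 6 the gene stood at 110% of Day0 with Smarcc1.6, 63.0% with Smarcc1.7 and 4.25% in Nons.

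**Figure D1:**
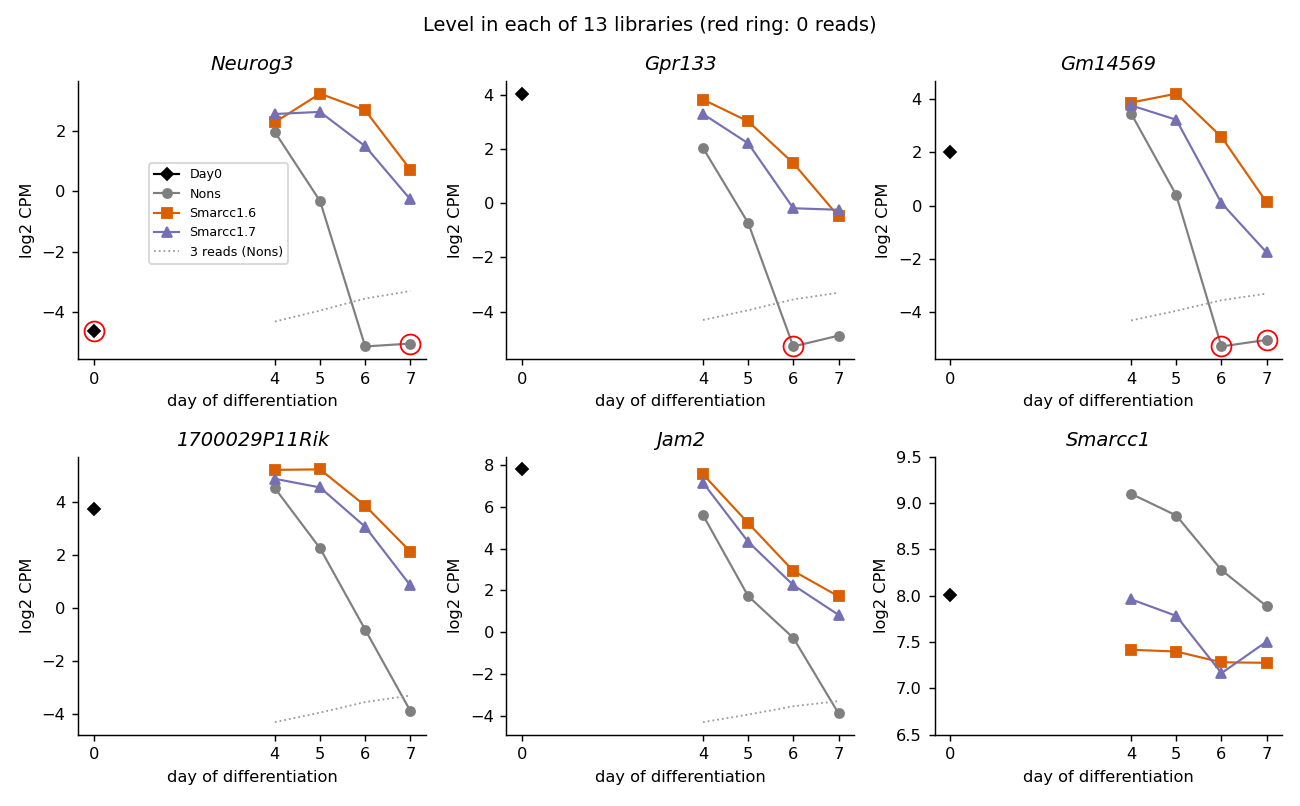
Level (log2 CPM) of the 5 genes and of Smarcc1 against day of differentiation, 1 point per library, with Day0 as a diamond, Nons as circles, Smarcc1.6 as squares and Smarcc1.7 as triangles. The dotted line marks 3 reads at the depth of each Nons library, and red rings mark the 5 values with 0 reads, of which 4 are in Nons and 1 is Neurog3 in Day0.

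Set against Day0, the 5 genes therefore did not share 1 pattern. Gpr133 and Jam2 were highest in Day0, Gm14569 and 1700029P11Rik were present there but higher in Nons on day 4 (273% and 174% of Day0), and Neurog3 had no reads. Absence from Day0 was rare, since 5 of the other 917 genes called higher in knockdown (0.545%) and 139 of all 13406 tested genes (1.04%) had 0 reads in that library. All 5 genes were below their Day0 level or at the detection limit in Nons by day 6. Scaled to exon length, Day0 levels per kilobase were 36.6 CPM for Jam2, 13.1 for 1700029P11Rik, 1.99 for Gpr133 and 0.706 for Gm14569. Since each library is a bulk sample, fewer cells with a transcript and less of it per cell cannot be told apart.

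Low reads were mostly in the control. Of the 65 values of these genes, 9 rested on 3 reads or fewer, 8 of them in Nons and 1 in Day0, and the knockdown libraries had 15 to 11968 reads. The size of the mean differences above therefore depends on how a missing read is written. With every value under 3 reads set to 3 reads, the mean difference was 3.22 for Neurog3, 3.06 for 1700029P11Rik, 3.06 for Jam2, 3.0 for Gpr133 and 2.77 for Gm14569. Among the same 730 genes these values rank 1, 3, 4, 5 and 9, so Gm14569 would leave the first 5 and AC122464.1, at rank 2, would enter.

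**Figure D2:**
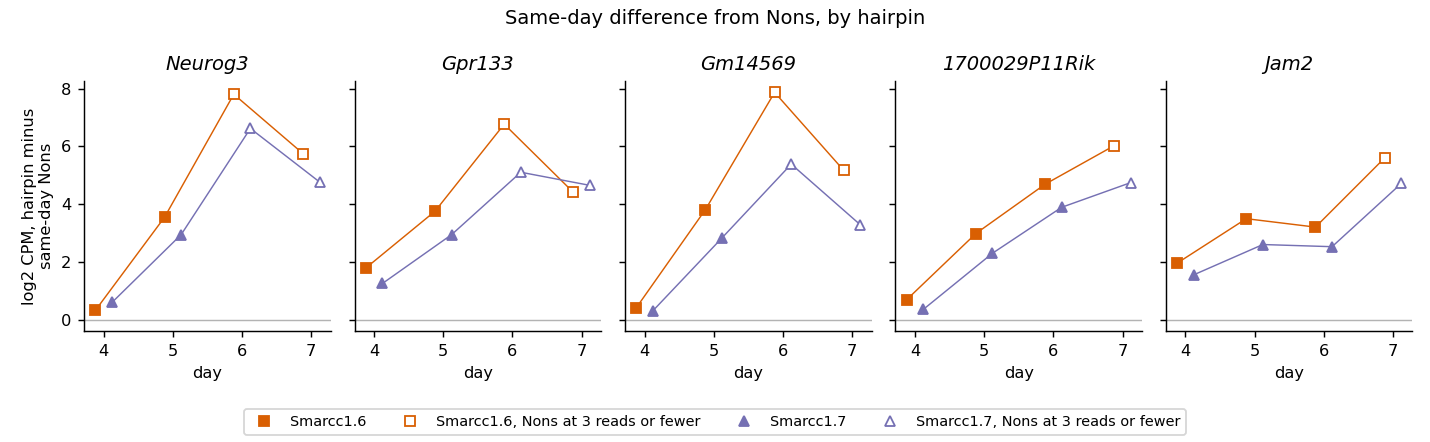
Difference in log2 CPM between each hairpin and the Nons library of the same day, for the 5 genes on days 4 to 7. Open symbols mark days on which Nons had 3 reads or fewer; the differences are all above 0 because the choice of genes required it, and those of each gene are smallest on day 4.

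Which way the genes moved with time was not a criterion of the choice. It was tested across all genes with limma on the 12 libraries, with group as a factor. These libraries also gave the differences that chose the 5 genes, and the slope includes the low Nons values of days 6 and 7. For the 5 genes the adjusted p values are therefore not independent of the choice. All 5 fell with day, as did 25.6% of the tested genes (3435 of 13406 falling at an adjusted p under 0.05). Jam2 fell by 2.38 ± 0.18 (SE) in log2 CPM per day (limma adjusted p = 2.94e-06), the sixth steepest fall of all. Gm14569 fell by 2.13 ± 0.34 (adjusted p = 0.000354), Gpr133 by 1.76 ± 0.27 (adjusted p = 0.00023), 1700029P11Rik by 1.75 ± 0.27 (adjusted p = 0.000232) and Neurog3 by 1.36 ± 0.35 (adjusted p = 0.00661). Without day 7 the fall of Neurog3 no longer passed the test (adjusted p = 0.11). Without day 6, whose libraries differ in read assignment, each of the 5 falls passed, with slopes of -2.36 to -1.33 per day.

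Within groups the falls were unequal. Neurog3 changed by -2.58 log2 CPM per day in Nons, -0.53 with Smarcc1.6 and -0.96 with Smarcc1.7. With Smarcc1.6 it was still higher on day 6 (6.36 CPM) than on day 4 (4.85 CPM). Jam2, whose groups ran most nearly in parallel, changed by -3.05, -1.98 and -2.11. For the other 3 genes the slopes were between -3.12 and -2.54 in Nons and between -1.97 and -1.06 with a hairpin.

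**Figure D3:**
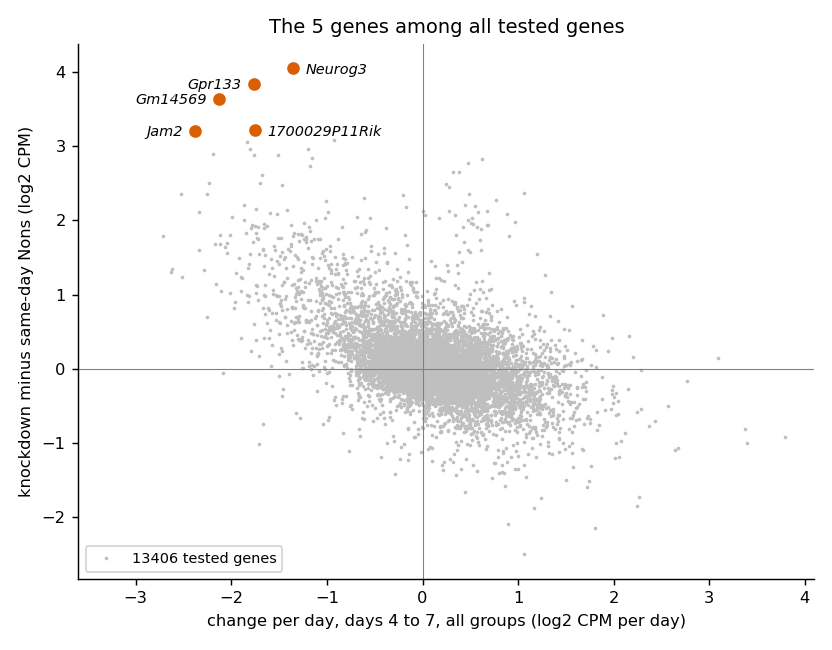
Change per day over all groups (horizontal, log2 CPM per day) against knockdown minus same-day Nons (vertical, log2 CPM) for the 13406 tested genes in grey, with the 5 genes in orange. The 5 genes sit at the upper left, where falls with time of 1.36 to 2.38 per day meet the differences of 3.21 to 4.05 that chose them.

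How the difference from Nons changed with time was fitted with a knockdown-by-day term beside day as a factor. The term was called for 3.75% of tested genes (503 of 13406 by limma at an adjusted p under 0.05, 326 of them positive). With day as a number in place of the factor, a form tried after the data had been seen, limma called 0 of 13406 genes (745 passed before adjustment, at p under 0.05). For the 5 genes the term was fitted to the same-day differences that chose them, on late days when Nons was at or near 0 reads, so its estimates are given as a description without a test. In log2 CPM per day they were 1.84 ± 0.44 (SE) for Neurog3, 1.62 ± 0.22 for 1700029P11Rik, 1.49 ± 0.56 for Gm14569, 1.16 ± 0.37 for Gpr133 and 1.00 ± 0.23 for Jam2.

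The estimates moved with single Nons libraries. Without Nons of day 4 they were 1.01 for Neurog3, 1.37 for 1700029P11Rik, 0.45 for Gm14569, 0.59 for Gpr133 and 1.05 for Jam2. Without Nons of day 7 they were 3.38, 1.88, 3.14, 2.21 and 0.56 in the same order. From day 4 to day 7 the mean difference of the hairpins from Nons went from 0.46 to 5.26 for Neurog3, from 0.52 to 5.39 for 1700029P11Rik and from 1.75 to 5.16 for Jam2, while for Smarcc1 it went from -1.41 to -0.50. The term for Smarcc1 itself was 0.30 ± 0.09 (limma adjusted p = 0.104).

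The hairpin libraries can also be placed on the time axis of the control. By linear interpolation between the Nons libraries, 22 of the 30 knockdown values of days 5 to 7 matched a level that Nons had passed 0.671 to 2.45 days earlier, with a median of 1.66 days. The median was 1.87 days with Smarcc1.6 and 1.45 with Smarcc1.7. The other 8 values, 7 of them on day 5, lay above Nons on day 4, before which no control library was taken. The choice of genes required every knockdown value to lie above same-day Nons, which fell with day. Each match therefore had to be to an earlier day, and whether differentiation was delayed was not tested here. The study assessed delay otherwise, by distances between whole expression profiles of female and male time courses, and reported no evidence for it. These are descriptions of 1 library per day, and where Nons had 0 reads they depend on the 0.9 reads written in its place.

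Smarcc1.6 gave higher levels than Smarcc1.7 in most libraries, but the hairpins were not separated by the test. The mean of Smarcc1.6 minus Smarcc1.7 over the 4 days was 1.36 ± 0.86 (SE, log2 CPM) for Gm14569, 0.77 ± 0.67 for 1700029P11Rik, 0.72 ± 0.45 for Jam2, 0.69 ± 0.64 for Gpr133 and 0.62 ± 0.92 for Neurog3, each at a limma adjusted p of 0.989. Leaving out 1 library at a time gave 0.58 to 2.22 for Gm14569, 0.29 to 1.33 for 1700029P11Rik, 0.35 to 1.04 for Jam2, 0.10 to 1.12 for Gpr133 and -0.04 to 1.45 for Neurog3. Smarcc1.6 was higher in 18 of the 20 same-day pairs, against 52.1% of the pairs over all tested genes, and the exceptions were Neurog3 on day 4 and Gpr133 on day 7. The 20 pairs are 5 genes of related pattern read in the same libraries of 4 days, so they are not 20 separate comparisons. The 52.1% covers all tested genes, not only those higher in knockdown. Across all genes the share called was 0% (0 of 13406 by limma, with 530 at an unadjusted p under 0.05 and 0 by limma voom). Smarcc1 itself was 0.26 ± 0.15 lower with Smarcc1.6 (adjusted p = 0.989).

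Steep falls with time and higher levels in knockdown went together well beyond these genes. Among the 153 other tested genes that fell at least as steeply as Neurog3, 94 (61.4%) were called higher in knockdown and 0 lower, with a median difference of 1.22, against 6.88% called higher (922 of 13406) and a median of -0.01 over all tested genes. Both measures come from the same 12 libraries. The 5 genes are set apart from these 153 by the size of the difference, which is what chose them.

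The genes whose pattern over the 13 libraries was most like each of the 5 were named by Pearson's r, as a description. For Neurog3 they were C330013F16Rik (r = 0.968), Dmrt1 (0.945), a transcription factor of the testis and germ line, and Ntrk2 (0.937), the receptor for the neurotrophin BDNF. For Gpr133 they were Gm4779 (0.974), 8030474K03Rik (0.970) and Sfxn4 (0.968), a mitochondrial sideroflexin. For Gm14569 they were Ctcfl (0.978), the germ line relative of the insulator protein CTCF, Stag3 (0.977), a meiotic cohesin subunit, and Tesc (0.963), a calcium-binding protein.

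For 1700029P11Rik the most similar were 4930548H24Rik (0.989), Sytl3 (0.983), a synaptotagmin-like protein of vesicle traffic, and 4930566F21Rik (0.982). The genes 4930548H24Rik and 4930566F21Rik overlap on chromosome 5, so they may share reads. For Jam2 they were D14Ertd668e (0.989), Fcgrt (0.988), the neonatal Fc receptor, and 4930519F16Rik (0.986). Of these 15 genes, 4 are X-linked, as are 3.78% of tested genes. Among the 4, Gm4779 (chrX:101790053-101793308) and 8030474K03Rik (chrX:101794656-101798642) lie close together and were both matched to Gpr133, so they may not count separately. Among the 5 genes r ran from 0.505, between Neurog3 and Jam2, to 0.961, between Gm14569 and 1700029P11Rik, and the 4 lowest values all involved Neurog3. The libraries share a time course, so that any genes falling with day correlate.

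The 5 genes were chosen as the largest rises, so no tested gene beside them could lie above them, and the neighbours are described only by their own values. Of the 5 nearest table genes on each side of each gene, 37 of 50 were tested, with a median difference from Nons of 0.02 log2 CPM, and 5 were called higher (13.5%, against 6.88% of all tested genes) and 3 lower (8.11%, against 4.77%). Next to Neurog3 these were 2010107G23Rik and Aifm2 (0.61 ± 0.12 SE, limma adjusted p = 0.011), a redox enzyme that limits ferroptosis. Near Gpr133 they were Piwil1 (1.90 ± 0.46, adjusted p = 0.0233), a germ line partner of piRNAs, and the metalloprotease gene Mmp17 (0.62 ± 0.14, adjusted p = 0.0167). Near Gm14569 Akap17b was higher (0.28 ± 0.07, adjusted p = 0.0278) and Dock11 lower (-0.45 ± 0.07, adjusted p = 0.00504). Near Jam2 App, the amyloid precursor protein (-0.76 ± 0.15, adjusted p = 0.0103), and Cyyr1 (-0.42 ± 0.12, adjusted p = 0.0454) were lower. No tested neighbour of 1700029P11Rik was called among 8. The largest neighbour difference was that of Piwil1.

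**Figure D4:**
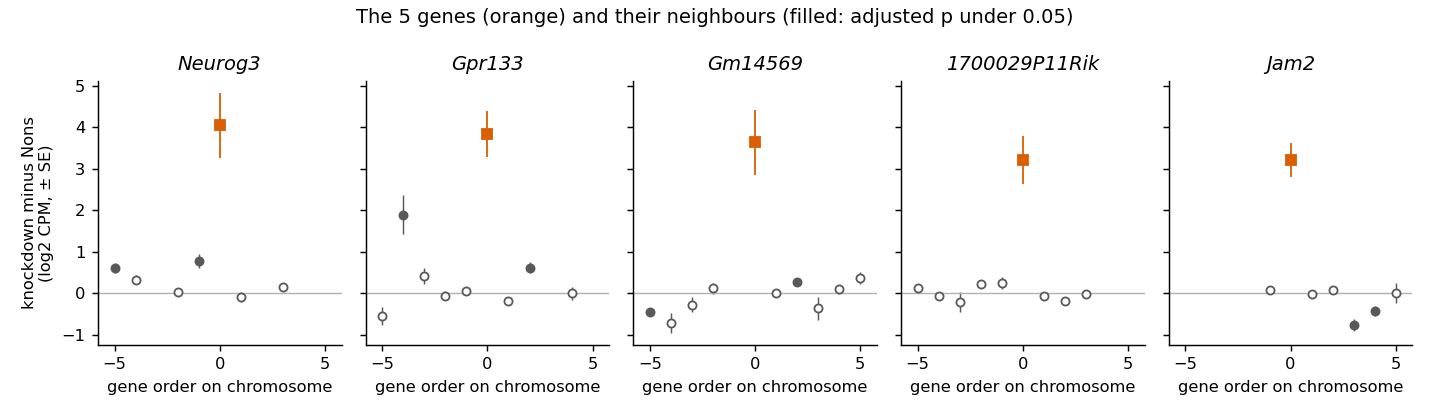
Knockdown minus Nons (log2 CPM, bars show SE) for the 5 genes as orange squares at position 0 and for their tested neighbours as circles, in order along the chromosome. Filled circles are the 5 neighbours called higher and the 3 called lower; the remaining 29 are open.

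In the families and pathways of the 3 genes with a known role, no other gene was called higher. Of 13 proneural and related bHLH genes, 3 were expressed enough to be tested and 0 were called by limma, with a median difference of 0.05. Of 19 pancreatic progenitor and endocrine genes, 6 were tested and 0 called, with a median of 0.12. Among the adhesion G protein-coupled receptors 14 were tested, with a median of 0.12, and the sole call was Lphn2, a latrophilin, which was lower (-0.64 ± 0.15 SE, limma adjusted p = 0.0176). Among junctional adhesion molecules and their partners 9 were tested and 0 called, with a median of 0.01. For comparison, 6.88% of all tested genes were called higher and their median was -0.01.

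Germ cell and testis genes and naive pluripotency genes, by contrast, were mostly higher in knockdown. Of 13 tested germ cell genes 11 were called higher, 0 lower, with a median difference of 1.17, led by Hormad1 (2.11 ± 0.41 SE, limma adjusted p = 0.00892) and Taf7l (1.78 ± 0.29, adjusted p = 0.00501), a meiotic chromosome axis protein and a testis form of a TFIID subunit. Dazl, an RNA-binding protein of germ cells, differed by 1.35 ± 0.21 (adjusted p = 0.00374), and the others called were Slc25a31, Stag3, Mael, Tex11, Sycp3, Sycp1, Ddx4 and Sycp2, from 1.39 down to 0.53. Of 11 tested naive pluripotency genes 8 were called higher and 0 lower, with a median of 1.00, among them Nr0b1 (1.79 ± 0.53, adjusted p = 0.0488), Prdm14 (1.62 ± 0.21, adjusted p = 0.00193) and Klf4 (1.40 ± 0.29, adjusted p = 0.0128). Zfp42, Klf2, Esrrb, Dppa3 and Tfcp2l1 followed, from 1.11 to 0.76. The study, from heat maps of its own gene set, reported no consistent change in pluripotency factors. Like the 5 genes, most of both groups fell with day, 11 of 13 and 8 of 11. Without day 6 the counts were 6 of 13 and 5 of 11, and the count over all genes called in either direction went from 1561 to 287.

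**Figure D5:**
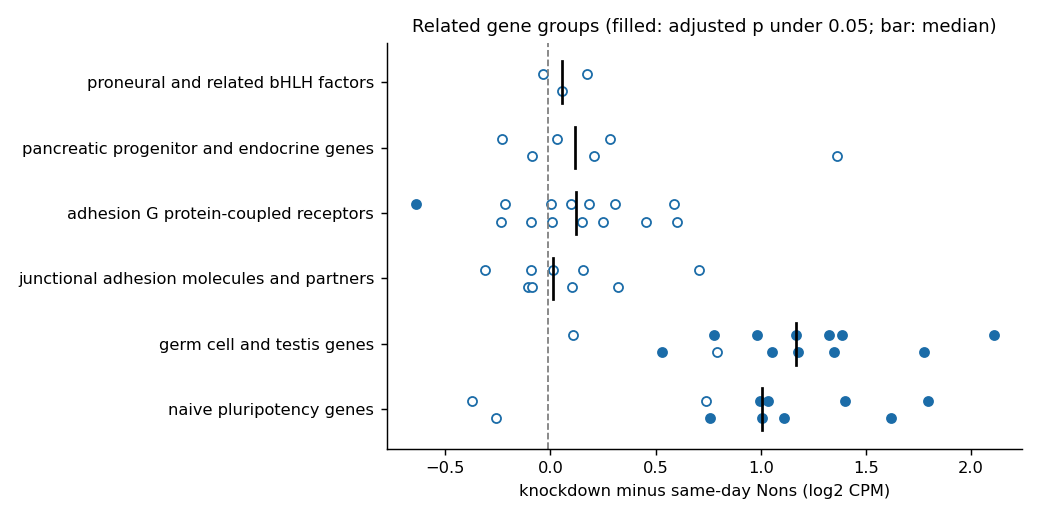
Knockdown minus same-day Nons (log2 CPM) for the tested genes of 6 groups, 1 circle per gene, filled where the adjusted p was under 0.05, with a bar at the group's median and a dashed line at the median of all tested genes, -0.01. The filled circles above 0 are the 11 germ cell genes and the 8 naive pluripotency genes.

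Markers of endocrine pancreas and of endothelium were mixed, with 0 reads for some and clear reads for others. Pancreatic endocrine markers summed to 1.89 to 9.20 CPM in Nons, 3.24 to 13.4 with Smarcc1.6 and 2.66 to 10.98 with Smarcc1.7, above Nons in 6 of 8 same-day sums. Chga supplied nearly all of this, and Ins1 and Gcg had 0 reads in all 13 libraries. Of 6 endothelial markers, 3 were tested and 1 was called higher. Their sum was 16.2 to 55.2 CPM in Nons, 16.3 to 94.3 with Smarcc1.6 and 15.0 to 73.3 with Smarcc1.7, above Nons in 6 of 8. The sum reached 234 CPM in Day0, where Pecam1, which mESCs also express, made up 225, while Emcn alone had 0 reads throughout. Kdr, named after its values were seen, was not called and changed side. On day 4 it stood at 14.1 CPM with Smarcc1.6 and 9.56 with Smarcc1.7 against 5.60 in Nons. On day 7 it stood at 1.48 and 0.610 against 14.0, and it was also below Nons on days 5 and 6. Neuroectoderm markers were higher in knockdown in 4 of 8 same-day sums and endoderm markers in 0 of 8, with 2 of 4 and 0 of 3 of the tested markers called higher. The neuroectoderm calls, named after their values were seen, were Sox1 (2.07 ± 0.61 SE, limma adjusted p = 0.0478) and Tubb3 (0.72 ± 0.19, adjusted p = 0.0318). Tubb3 was highest in Day0, at 152 CPM. The tested markers not called were Pax6 (0.21 ± 0.16, adjusted p = 0.437) and Nes (-0.41 ± 0.18, adjusted p = 0.154). On day 6 Nes stood at 153 CPM with Smarcc1.6 and 175 with Smarcc1.7 against 250 in Nons, and on day 7 at 251 and 192 against 160. Sox1 had 1 read in Day0 and was below Nons on day 4. On day 6 it stood at 10.01 CPM with Smarcc1.6 and 6.89 with Smarcc1.7 against 0.454 in Nons. Of the 3 endoderm markers 1, Sox17, was called lower (-0.88 ± 0.24 SE, limma adjusted p = 0.0369), a gene named after its values were seen.

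The mESC markers were mostly higher in knockdown. Of 8 tested, 6 were called higher, and their sum was above same-day Nons in 7 of 8 libraries, at 1109 to 1757 CPM in Nons, 1388 to 2703 with Smarcc1.6, 1122 to 2232 with Smarcc1.7 and 5284 in Day0. In Nons most of the sum was Pou5f1, at 798 to 1490 CPM, and Nanog went from 86.0 CPM on day 4 to 245 CPM on day 7, days over which the 5 genes fell. Germ cell markers were above Nons in 8 of 8, with 5 of 6 called higher, at 24.0 to 431 CPM in Nons, 56.3 to 705 with Smarcc1.6, 54.3 to 642 with Smarcc1.7 and 976 in Day0. The part of these cells or transcripts in the levels of the 5 genes was not tested, and Neurog3, without reads in Day0, did not track the mESC markers in that library.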

How the data were processed

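RNA-seq reads of the 13 libraries were processed by the authors, who aligned them to mm10 (the submitters' processing notes name TopHat2 2.0.12 and bcl2fastq), counted them per gene in Seqmonk and deposited log2 CPM values over mapped reads. The annotation release was not given in the sources used here. The deposited log2 values fell on whole reads for 100% of low values and at least 99.98% of all values in each library (tolerance 0.1 read), which gave the depths. The tests used the deposited log2 values, and limma voom on the recovered whole reads was an alternative.

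Of 25965 genes, the 13406 whose log2 CPM averaged 0 or more in the 12 libraries of days 4 to 7 were fitted with limma 3.58.1 in R 4.3.3 (lmFit, eBayes with trend), with Benjamini-Hochberg adjustment over all of them and a threshold of 0.05. Knockdown minus Nons and the hairpin contrast had day as a factor. Day0 entered no test. The models were tested on simulated data. Ratios of reads carry 95% exact (Clopper-Pearson) intervals, and 3 reads stood for 0.

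The 5 genes, the gene lists, the tests and most alternatives were chosen with earlier results of these data known. Named besides them were Smarcc1, list genes called in knockdown minus Nons, the next 3 rises, the 3 genes most like each by Pearson's r, and called genes among the 5 nearest on each side. Gpr133 was matched to Adgrd1. Values were computed with numpy 2.4.6 and pandas 2.3.3, intervals with scipy 1.17.1 and plots with matplotlib 3.10.9, under Python 3.11.15.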

Additional observations from a re-analysis of the deposited data

Results flagged for a closer look

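For 3 genes the knockdown-by-day term was flagged because it passed the threshold in the main fit (limma, adjusted over 13406 genes). All 3 calls were lost with day as a number in place of the factor, and also without Nons of day 4. The change per day of the difference from Nons, in log2 CPM, was 1.84 for Neurog3, 1.62 for 1700029P11Rik and 1.00 for Jam2. The term was fitted to the same-day differences that chose these genes, with Nons at or near 0 reads on the late days, so the values are a description and no independent evidence. No library of Nons, Smarcc1.6 or Smarcc1.7 stood far from the other 3 of its group by Dixon's ratio, for the 5 genes or Smarcc1. There were 18 groups, of which about 0.9 would pass by chance if the 4 libraries were replicates of 1 level. They are instead 4 days of a time course, so the ratio cannot tell an outlying library from a change with day.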

How the results depend on the processing

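The falls with day kept their direction in every alternative, and their calls in all but 1 (Neurog3 without day 7), with 6658 to 10072 genes called. No called result changed direction, while the hairpin difference of Neurog3, not called, went from 0.62 to -0.04 without Smarcc1.6 of day 6. Against 503 genes with a knockdown-by-day call, 272 were called without the trend on mean expression, 167 without day 4, 272 without day 5, 272 without day 6 and 0 with day as a number, an alternative chosen after seeing the data. Leaving out 1 library gave 198 (without Nons of day 4) to 532 genes. For the 5 genes the term, a description, stayed positive in every alternative, from 0.45 to 3.38 per day. The hairpin contrast called 2 genes without a filter on low values and 0 in every leave-one-out fit.

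The count for knockdown minus Nons, 1561 genes, went to 386 without day 5, 287 without day 6 and 4 without a day term. It ranged from 611 (without Nons of day 5) to 2003 (without Nons of day 4) when 1 library was left out, and was 624 without Nons of day 6, 1002 without Smarcc1.6 of day 5 and 952 without Smarcc1.6 of day 6. With a filter at a mean log2 CPM of 2, Neurog3, Gpr133 and Gm14569 were not tested. The mean differences of the 5 genes stayed within 1 SD of their 8 same-day values in each alternative, at 2.01 to 5.24. That SD includes the change of the differences with day, so it is a wide yardstick. The call that made a gene eligible was not stable. Without day 6 it was lost for Neurog3, Gm14569 and 1700029P11Rik (limma adjusted p = 0.0575, 0.0672 and 0.0649). Without day 5 it was lost for Neurog3 and Gm14569 (limma adjusted p = 0.0505 and 0.0799). The causes of these shifts were not tested. The knockdown and hairpin fits paired libraries by day, and the labels give no replicate numbers beyond it. Depth limits the control values of days 6 and 7 most, where 3 reads equal 0.0852 and 0.101 CPM.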
